A study of Homo sapiens with 4 samples.

Results

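The late and the early round of a drug-selected liver cancer line were compared, F12 against F6. HuH7 is an established human hepatocellular carcinoma line, and each of F6 and F12 was measured on 1 expression array, so no difference between them has a replicate behind it and none was tested. Genes were taken where the log2 signal reached 6 on F6 or F12, which 10785 of 19775 genes did (54.5%). The other 8990 read under 6 on both arrays, near background. The difference given throughout is the log2 signal on F12 minus that on F6, so 1 is 2-fold and 2 is 4-fold.

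F0 is the parental HuH7 line, with 2 arrays called F0 (1) and F0 (2). F6 and F12 came from HuH7 tumors carried by NOD/SCID mice that received JNJ-28841072, an inhibitor of VEGF receptors and aurora kinases. Tumors that resisted the drug were cut up and grafted into further mice, over 6 rounds for F6 and 12 for F12. The labels' phenotype field names another drug, sorafenib, for both resistant samples and calls each a subclone. Which drug the selection used is not settled by the labels. The labels do not say whether F12 descends from the F6 tumors. Rounds of drug and rounds of passage cannot be told apart, since no array of tumors regrafted without drug was used here. Whether the F0 arrays came from separate cultures or tumors is not stated in the labels, nor is the number of tumors behind each array. RNA came from tissue, so fewer cells of a type and less RNA per cell cannot be told apart either. Values with no count behind them carry no depth, and the number of arrays limits the precision.

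Aurora kinases drive the assembly of the mitotic spindle and the separation of chromosomes, and VEGF receptors carry the signal for new vessels. Sorafenib acts on RAF kinases as well as on VEGF and PDGF receptors, and RAF sits above the MAPK cascade. Hepatocellular carcinoma cells often depend on FGF19 and its receptor FGFR4, which feed the same cascade, whose output includes the ETV transcription factors and the feedback inhibitors of the Sprouty and DUSP families. Cells that secrete much protein, as liver cells do, meet unfolded protein in the endoplasmic reticulum by making more chaperones.

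In that response transcription factors bind promoters at the endoplasmic reticulum stress response element, a CCAAT box and a CCACG box with 9 bases between them. The promoters of 4 chaperone genes that hold it are shown because the chaperones were among the gene groups that read higher on F12. Each line gives the 250 bases before the RefSeq start (GRCh38.p14), 5′ to 3′ on the strand of the gene, with the element in capitals, also where it lies on the opposite strand.
HSPA5: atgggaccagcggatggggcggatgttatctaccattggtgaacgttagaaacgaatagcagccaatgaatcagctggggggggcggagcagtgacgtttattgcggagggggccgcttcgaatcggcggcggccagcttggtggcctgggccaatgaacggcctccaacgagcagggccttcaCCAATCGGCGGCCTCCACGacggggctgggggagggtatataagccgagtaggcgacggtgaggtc
HSP90B1: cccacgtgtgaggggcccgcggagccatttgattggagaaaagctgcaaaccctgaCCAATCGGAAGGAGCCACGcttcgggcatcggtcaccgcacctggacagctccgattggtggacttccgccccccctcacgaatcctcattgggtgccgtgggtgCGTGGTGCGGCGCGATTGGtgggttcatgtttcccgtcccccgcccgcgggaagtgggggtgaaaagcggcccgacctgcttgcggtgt
CRELD2: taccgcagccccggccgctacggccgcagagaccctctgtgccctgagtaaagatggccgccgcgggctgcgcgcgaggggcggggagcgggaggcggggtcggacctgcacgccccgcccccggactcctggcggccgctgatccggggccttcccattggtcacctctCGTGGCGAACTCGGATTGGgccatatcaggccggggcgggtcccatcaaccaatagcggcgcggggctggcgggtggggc
CALR: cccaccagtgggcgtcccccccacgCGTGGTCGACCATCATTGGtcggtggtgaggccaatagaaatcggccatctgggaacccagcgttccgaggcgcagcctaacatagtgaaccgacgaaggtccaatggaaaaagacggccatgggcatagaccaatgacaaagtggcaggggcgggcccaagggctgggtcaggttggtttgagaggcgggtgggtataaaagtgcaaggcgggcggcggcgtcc
They lie at chr9:125241344-125241593 on the minus strand and at chr12:103930160-103930409, chr22:49918384-49918633 and chr19:12938359-12938608 on the plus strand. The element began 66 bases before the start of HSPA5 and 194 and 89 bases before that of HSP90B1, at 80 for CRELD2 and at 225 for CALR. It was searched on both strands, and 26 of 35116 RefSeq promoter windows of that length held it (0.0740%). Of the 10785 genes, 8862 had a promoter in the table, and 14 of these held the element. Of the 14, 9 read at least 2-fold higher on F12 (64.3%, against 33.8% of the 10785 genes), 1 at least 2-fold lower (TMEM120A) and 4 differed by less. The share among the 8862 alone was not computed. Of the 9, 7 followed the difference between the F0 arrays. HSPA5, the main chaperone of the endoplasmic reticulum, read 10.55 on F0 (1), 13.61 on F0 (2), 11.93 on F6 and 13.97 on F12. HSP90B1 read 8.40, 12.77, 9.67 and 12.51 on the same arrays. CRELD2, a secreted stress protein, read 11.19, 10.52, 10.001 and 11.43, so F6 was its lowest array and the F0 arrays were close. CALR, the lectin chaperone calreticulin, read 8.11, 6.94, 7.80 and 7.85, a difference of 0.05 between F12 and F6, and its 3 probesets did not move one way. XBP1, a transcription factor of the response whose promoter also held the element, read 11.64 on F6 and 11.63 on F12. A match says only that the letters stand in the window.

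Across the 10785 genes, 3650 (33.8%) read at least 2-fold higher on F12 and 2369 (22.0%) at least 2-fold lower. At 4-fold the counts were 2052 higher (19.0%) and 505 lower (4.68%), and at 16-fold 88 and 13. The 4-fold genes include 1126, of 2557, whose lower signal was under 6, so that their fold is a limit set by background. Of the 2-fold genes, 2803 had more than 1 usable probeset, and for 2373 of them (84.7%) all probesets moved the same way.

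Most of this followed a difference that was already there between the parental arrays. F0 (1) and F0 (2) differed at least 2-fold for 7955 of the same genes (73.8%). Across genes, which are not independent, the difference F12 minus F6 had a Pearson r of 0.867 and a Spearman rho of 0.875 with F0 (2) minus F0 (1), and these differences share no array. The fitted slope was 0.58, so a gene 4-fold apart between the F0 arrays was on average a little over 2-fold apart between the rounds. Of the 6019 genes at least 2-fold different between the rounds, 5828 (96.8%) had the sign of the F0 difference. The SD of the difference across genes was 1.62, and 0.81 was left after the line.

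**Figure D1:**
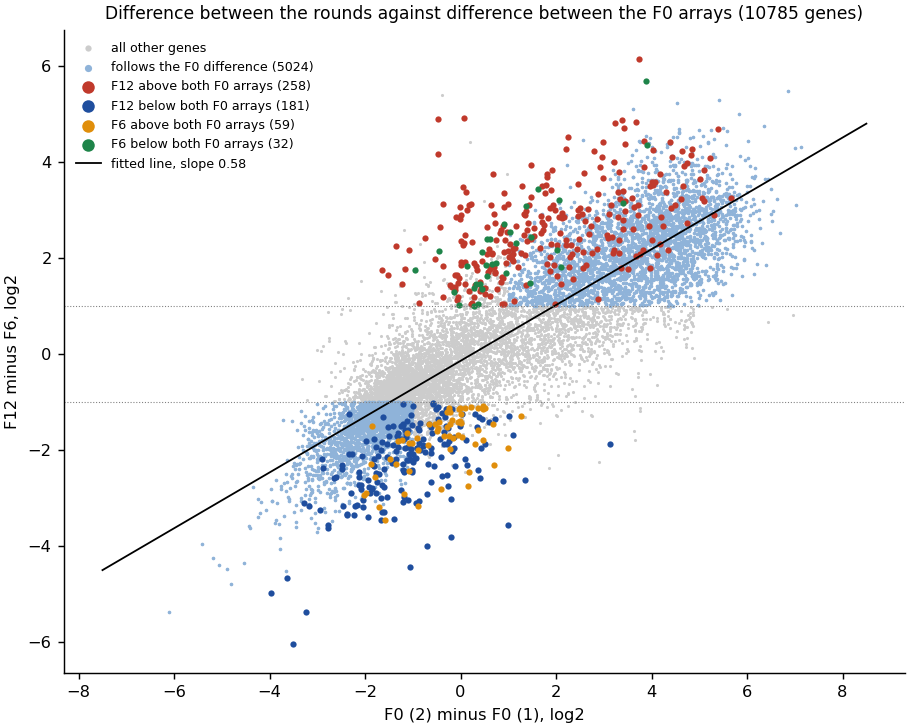
Each point is 1 of the 10785 genes, placed by the log2 difference between the F0 arrays (x axis) and by the log2 difference between F12 and F6 (y axis), with dotted lines at 2-fold and the fitted line in black. Most genes lie along the line of slope 0.58, and the coloured genes beyond both F0 arrays lie mainly above it on the upper side and below it on the lower side.

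The 6019 genes were sorted by where F6 and F12 stood against both F0 arrays, with a margin of 2-fold. F12 stood above both F0 arrays and F6 did not for 258 genes (2.39% of 10785), and F12 alone stood below both for 181 (1.68%). F6 alone stood above both for 59 (0.547%) and below both for 32 (0.297%). A further 12 genes had F6 and F12 on the same side of both F0 arrays, and 4 had them on opposite sides. The remainder had neither round outside. Of these, 5024 (46.6% of all genes and 83.5% of the 6019) followed a 2-fold F0 difference, 3200 of them higher on F12 and 1824 lower, while 37 went against such a difference and 412 differed between the rounds where the F0 arrays were within 2-fold. Where the classes end is shown by the genes on either side. HS6ST2 lay 1.004 above both F0 arrays on F12 and ZFAS1 0.9998. ASF1B lay at -1.0003 from the lower F0 array on F12 and NUDT1 at -0.994. On F6, BUD13 lay 1.016 above both and MTHFD1 0.9985, and CKMT2-AS1 lay at -1.008 and C8A at -0.9955. At the minimum level, the higher of the signals on F6 and F12 was 6.0005 for GJD3, which was kept, and 5.9996 for KIFC3, which was not.

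These counts rested on the F0 pair. With F0 (1) left out, F12 alone stood above the remaining array for 154 genes and below it for 146, and F6 alone for 1698 and 2960. With F0 (2) left out, F12 alone stood above for 1220 and below for 1885, and F6 alone for 79 and 36. These counts hold only genes 2-fold apart between the rounds and leave out those with both rounds beyond the remaining array, so they do not count all genes in which a round differed from that array. Taking the mean of all probesets of a gene gave 137 genes with F12 above, of which 121 were among the 258.

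The genes named by rule for F12 above both F0 arrays, those with the widest difference once signals under 6 were raised to 6, were GPAM, KIF5C, OCLN, MOSPD1, DDX43, SEL1L, SKAP2, PRKACB, FAM107B and RASEF. GPAM, which starts glycerolipid synthesis in mitochondria, read 4.80 and 10.19 on the F0 arrays, 6.62 on F6 and 11.31 on F12. KIF5C, a kinesin motor, read 5.03, 9.42, 6.30 and 10.72, and OCLN, the tight junction protein occludin, 5.28, 10.13, 6.91 and 11.18. For each of the 10, F0 (2) was the higher F0 array, and F6 lay between the F0 arrays, so F12 went the way of the F0 difference and passed it. DDX43, a helicase of the cancer-testis group, read 3.93, 8.76, 6.01 and 10.15. It was the only 1 of 20 measured cancer-testis genes that reached log2 6 on F6 or F12.

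Some genes of this class stood apart with the F0 arrays within 2-fold of each other, 87 of the 258. The 12 with the widest difference, by the same measure, were picked after their values were seen. VCAM1, an adhesion molecule for white blood cells, read 4.16 and 3.69 on the F0 arrays, 4.56 on F6 and 9.46 on F12. SERPING1, the inhibitor of complement C1, read 6.47, 6.45, 6.76 and 9.83. SOCS2, which restrains growth hormone signalling, read 4.61, 5.29, 5.50 and 9.24. FGA, the alpha chain of fibrinogen, read 9.57, 9.67, 9.33 and 11.25, and PROCR, the protein C receptor, 5.23, 4.49, 5.77 and 8.18. In all 5 genes F12 was the high array. For VCAM1, SOCS2 and PROCR those other signals were under 6, so the size of their differences is a limit. SNHG32, a host transcript of small nucleolar RNAs, read 11.31, 12.20, 10.67 and 13.33, well above background on every array.

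The genes with F12 below both F0 arrays named by the rule were GPX3, CDT1, GPX2, ETV4, ID1, RRM2, DRG2, MVD, PKM and ETV5. ID1, which blocks helix-loop-helix transcription factors, read 13.73 and 13.03 on the F0 arrays, 13.24 on F6 and 9.25 on F12, a difference of -3.997. RRM2, the regulated subunit of ribonucleotide reductase, read 11.13, 10.92, 11.73 and 7.91. For both, the 3 other arrays agreed within 2-fold and F12 was the low one. GPX3, a secreted glutathione peroxidase, read 11.96, 8.45, 11.19 and 5.15, and GPX2, its counterpart of the gut epithelium, 11.80, 10.75, 11.28 and 6.84. In this class 69 of the 181 genes had F0 arrays within 2-fold of each other, among them the tubulin TUBB (12.02, 11.16, 12.77 and 9.71), the cytokine MIF (13.31, 12.68, 13.32 and 10.64) and the thrombin inhibitor SERPIND1 (9.996, 9.73, 10.75 and 8.004).

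The genes named for F6 above both F0 arrays were H1-2, H2BC12L, OLFML3, H2BC12, ALDH1B1, TPX2, DHCR7, NDRG4, SFN and TDP1. TPX2, which activates and places Aurora A on the spindle, read 9.25 and 9.95 on the F0 arrays, 11.27 on F6 and 8.95 on F12. SFN, the 14-3-3 protein induced by p53, read 9.35, 8.45, 11.48 and 9.48. DHCR7, the last enzyme of cholesterol synthesis, read 10.19, 8.84, 11.45 and 9.15. The linker histone H1-2 read 10.39, 8.79, 11.46 and 7.999, and probes for histone genes can also catch near-identical copies. In this class 42 of 59 genes had F0 arrays within 2-fold.

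F6 stood below both F0 arrays for LAMP3, SULT2A1, NUPR1, TSPAN8, IMMP1L, LSM8, CKMT2-AS1, SLIRP, RPL34 and DEFB1. NUPR1, a small stress-response protein of chromatin, read 9.67 and 10.84 on the F0 arrays, 8.31 on F6 and 10.63 on F12. SULT2A1, the sulfotransferase for bile acids and steroids, read 7.29, 8.90, 6.16 and 9.61. LAMP3, a lysosomal membrane protein, read 4.97, 8.85, 3.90 and 9.59, the widest difference of the class. Its F6 signal was under 6, and with such signals raised to 6 the difference was 3.59 in place of 5.70. DEFB1, a defensin, read 10.78, 10.91, 9.58 and 11.41.

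**Figure D2:**
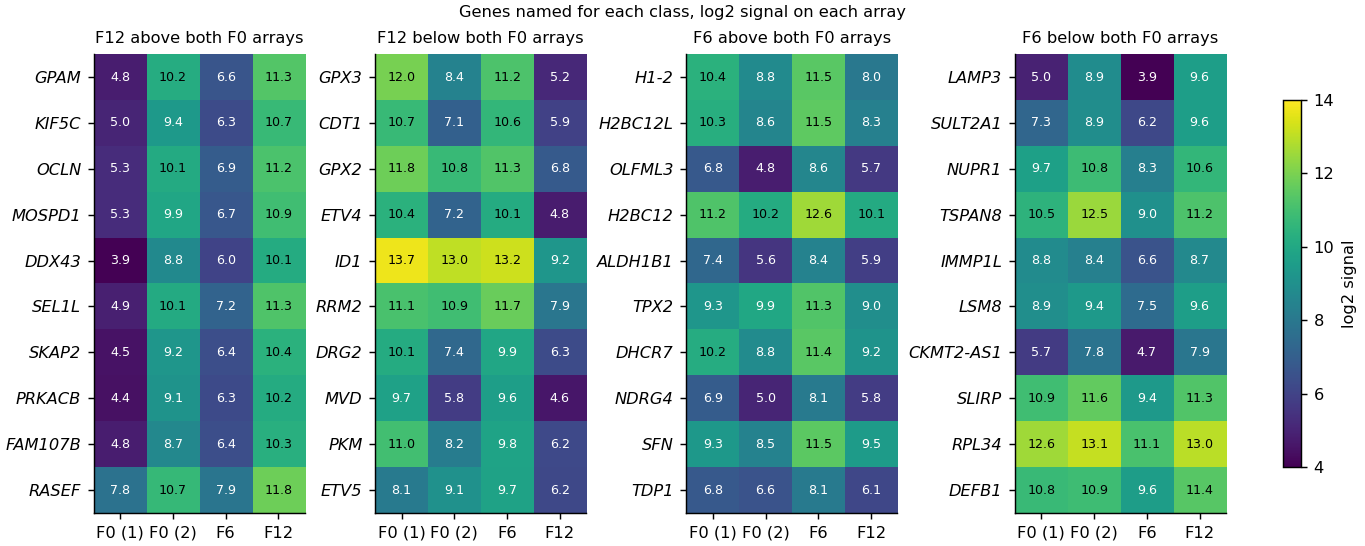
Colour and number give the log2 signal of the 10 genes named for each of 4 classes (rows) on each of the 4 arrays (columns). In the first panel F12 is the brightest column and F6 lies between the F0 arrays, and in the third F6 is the brightest column.

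Of the genes at least 2-fold apart between the rounds, 12 had both rounds beyond the F0 arrays on the same side. F12 lay farther out in 11 and nearer in 1, PRAP1. This count leaves out genes beyond the F0 arrays in both rounds that differed by less between them or read under 6 on both. REG3A is such a gene, at 8.08, 9.59, 4.41 and 4.47. BEX1, a small X-linked signalling adaptor, read 4.58 and 4.19 on the F0 arrays, 6.59 on F6 and 11.99 on F12. ABCG5, 1 chain of the sterol exporter of liver and gut, read 4.27, 3.43, 5.30 and 7.59. Its partner chain ABCG8 read 4.96, 3.94, 6.39 and 4.55, high on F6 instead. Most signals of both chains were under 6, near background. With such signals raised to 6, the difference of ABCG8 went from -1.85 to -0.39 and that of ABCG5 from 2.28 to 1.59. Going down, MGLL, which splits monoglycerides, read 9.60, 9.42, 7.57 and 5.25, and CEBPD, a transcription factor of the acute phase, 11.35, 10.78, 9.72 and 8.64. PRAP1, a secreted epithelial protein, read 6.71, 5.77, 9.62 and 7.98, above both F0 arrays on each round and lower on F12 than on F6. The 4 genes on opposite sides were FIBIN, NEBL, SDCCAG8 and RGCC, and each had a signal under 6 on F6 or on F12.

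The 37 genes that went against the F0 difference held several regulators. MYCN, an oncogenic transcription factor of fetal liver and hepatoblastoma, read 9.22 and 11.07 on the F0 arrays, 11.52 on F6 and 9.15 on F12. SPRY2, a Sprouty inhibitor, read 6.84, 8.87, 9.45 and 7.34, and LEF1, a Wnt transcription factor, 5.64, 8.55, 7.67 and 5.42. SQLE, the epoxidase of cholesterol synthesis, read 5.87, 9.51, 10.35 and 8.75. In these 4, F12 was lower than F6 although F0 (2) was higher than F0 (1). LARP6, which binds collagen transcripts, went the other way, at 9.09, 7.91, 7.24 and 9.82.

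Output genes of the MAPK cascade read lower on F12. Of 18 genes at the level (22 measured), 0 read at least 2-fold higher on F12 and 10 at least 2-fold lower (55.6%, against 22.0% of all genes), and the median difference was -1.10. It was -1.60 once the line on the F0 difference was subtracted, and the median F0 difference of the list was 0.30. The transcription factor ETV4 read 10.41 and 7.17 on the F0 arrays, 10.15 on F6 and 4.77 on F12, and ETV5 read 8.09, 9.08, 9.75 and 6.18. The phosphatase DUSP5 read 9.92, 9.22, 10.65 and 7.74, and the inhibitor SPRY1 9.22, 7.37, 8.87 and 6.08. With SPRY4 (6.35, 6.21, 6.87 and 4.91) and IER3 (11.26, 10.31, 11.33 and 9.17), these made 6 of 18 genes with F12 below both F0 arrays, against 1.68% of all genes. MYC was within 2-fold, at 10.57 on F6 and 10.02 on F12, and so was CCND1, at 8.31 and 8.71.

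The FGF receptors and their ligand read lower on F12 too. FGFR4, the receptor that liver cells use for FGF19, read 11.09, 9.99, 11.00 and 7.96, FGFR3 read 10.49, 10.36, 10.72 and 8.99, and FGF19 itself 8.35, 8.70, 8.68 and 7.15. In each of the 3, F12 was the lowest array and stood below both F0 arrays. The coreceptor KLB went the other way, at 7.25, 10.17, 9.16 and 10.83. Of 15 genes of this list measured, 7 reached the level. Of these, 4 were at least 2-fold lower (57.1%, against 22.0% of all genes) and 1 at least 2-fold higher (14.3%, against 33.8%).

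Targets of BMP and SMAD signalling split. ID1 is given above, and ID3 read 11.33, 9.55, 10.73 and 7.84, both lowest on F12. ID4 read 6.29, 6.47, 7.82 and 5.36 and was highest on F6. The ligand BMP2 read 6.88, 10.70, 9.65 and 11.83, highest on F12. Of 13 genes at the level, 5 were at least 2-fold lower (38.5%, against 22.0% of all genes) and 2 higher (15.4%, against 33.8%).

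The drug's named targets were read as follows. KDR, the main VEGF receptor of endothelium, read 2.83 on F6 and 2.44 on F12, near background as on both F0 arrays (2.93 and 2.49), and FLT1 read 6.07 and 5.63. VEGFA read 8.10, 11.27, 9.30 and 10.81, but its 4 usable probesets ran from -1.54 to 1.51 in F12 minus F6, so no direction is given. NRP2, a coreceptor of VEGF, read 4.67, 5.59, 4.01 and 7.36. The list of VEGF ligands and receptors had a median of 1.10 over 11 genes at the level, and this median turned negative under 4 of the alternatives, the mean of all probesets among them (-0.35).

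Aurora B and its partners read lower on F12. AURKB, the kinase of the chromosomal passenger complex, read 11.40 and 9.02 on the F0 arrays, 10.61 on F6 and 7.27 on F12, and its 2 usable probesets differed by -3.34 and -2.09. Survivin (BIRC5), which holds the complex at the centromere, read 11.15, 10.23, 10.74 and 8.56. Borealin (CDCA8) read 9.56, 8.31, 10.09 and 7.38. AURKA read 7.92, 10.80, 10.45 and 9.85, a difference of -0.60. Of the 10 genes in this list, 6 were at least 2-fold lower on F12 (60.0%, against 22.0% of all genes). The 2 that were at least 2-fold higher (20.0%, against 33.8%) were HAUS1 and SGO1.

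Genes that copy DNA read lower on F12. Of 35 replication genes at the level, 19 were at least 2-fold lower (54.3%, against 22.0% of all genes) and 3 higher (8.57%, against 33.8%). The median was -1.11, while the median F0 difference was 0.03. Of the 22, 10 followed the F0 difference and 7 had F12 below both F0 arrays. The licensing factor CDT1 read 10.73, 7.08, 10.61 and 5.94, and ORC1, of the origin recognition complex, 7.28, 7.64, 8.59 and 6.17. MCM2, of the replicative helicase, read 12.39, 10.85, 11.95 and 9.80, and MCM3 10.63, 10.36, 10.80 and 9.25. UHRF1, which hands methylation to the new strand, read 10.22, 9.61, 10.23 and 8.16. Over all 10 genes named MCM at the level, 6 were at least 2-fold lower (60.0%, against 22.0%) and 2 higher (20.0%, against 33.8%). Enzymes of nucleotide supply did alike, with 11 of 22 at least 2-fold lower and 3 higher. RRM2 is given above, and thymidine kinase TK1 read 11.18, 8.23, 10.27 and 7.01. RRM2B, the subunit induced by p53, was 1 of the 3 higher ones, at 3.05, 8.06, 5.33 and 7.46.

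Mitotic genes divided by their F0 difference. Of 34 at the level, 10 were at least 2-fold higher on F12 (29.4%, against 33.8% of all genes) and 11 lower (32.4%, against 22.0%). The median difference was 0.11. The F0 arrays themselves differed by a median of 3.57, and the median left after the line was -1.62. Among members whose F0 arrays were within 2-fold, CCNB1 (cyclin B1) read 10.86, 10.58, 11.56 and 9.04, the securin PTTG1 11.62, 11.76, 12.01 and 9.69, the kinesin KIF20A 8.33, 8.74, 9.22 and 6.65, and the transcription factor FOXM1 9.52, 8.78, 9.65 and 7.60. In each of these F12 was the lowest array. Among members with F0 (2) far above F0 (1), TOP2A read 6.33, 11.87, 9.07 and 10.55, and CENPE, the kinesin of the kinetochore, 3.97, 8.57, 5.27 and 6.60, higher on F12 than on F6 but below F0 (2). F12 stood below both F0 arrays for 7 of the 34 and above both for 0.

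Histone genes read lower on F12 without an exception at 2-fold. Of 24 core and linker histone genes measured, 18 reached the level. Of these, 14 were at least 2-fold lower (77.8%, against 22.0% of all genes) and 0 higher, with a median of -2.11. The F0 arrays differed by a median of -1.81, and 9 of the 14 followed that difference. H1-1 read 10.93, 8.99, 10.01 and 6.61, and H1-4 7.57, 6.16, 7.05 and 5.15, both below both F0 arrays on F12. Most histone transcripts lack a poly(A) tail, and the part of RNA handling in these values was not tested.

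Enzymes of glycolysis read lower on F12. Of 13 at the level, 11 were at least 2-fold lower on F12 (84.6%, against 22.0% of all genes) and 0 higher, with a median of -2.21, or -1.35 left after the line. The aldolase ALDOA read 13.82, 12.21, 13.51 and 10.22, the kinase PGK1 12.70, 12.14, 12.48 and 10.15, the isomerase TPI1 13.74, 12.63, 13.47 and 11.26 and pyruvate kinase PKM 10.97, 8.19, 9.78 and 6.22. These 4 had F12 below both F0 arrays, and every usable probeset of each was lower. GAPDH read 14.35, 13.78, 14.38 and 13.28, a difference of -1.10. LDHA read 12.75, 13.72, 13.33 and 12.40, within 2-fold between the rounds. Hexokinases and glucose carriers stand at the entry to the pathway. Of 6 at the level, 2 were at least 2-fold higher on F12 (33.3%, against 33.8% of all genes) and 1 lower. The glucose carrier SLC2A2 read 3.20, 6.18, 3.76 and 8.19, and HKDC1, a hexokinase, 6.07, 6.24, 6.85 and 9.95, although the 4 usable probesets of HKDC1 ran from 0.07 to 3.11.

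The respiratory chain also read lower, less far. Of 30 genes at the level, 15 were at least 2-fold lower and 2 higher, with a median of -0.89, or -0.35 left after the line. CYC1, cytochrome c1, read 13.06, 10.76, 12.65 and 9.76, and ATP5MC1, of the ATP synthase ring, 12.38, 10.77, 11.84 and 9.07. Cytosolic ribosomal proteins differed little, with a median of 0.29. Of 33 at the level, 6 were at least 2-fold higher (18.2%, against 33.8% of all genes) and 0 lower (against 22.0%).

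Enzymes of cholesterol synthesis were higher on F6 than on F12. Of 18 at the level, 11 were at least 2-fold lower on F12 (61.1%, against 22.0% of all genes) and 2 higher (11.1%, against 33.8%). The median was -1.50, or -0.85 left after the line. MVD, the mevalonate decarboxylase, read 9.73, 5.77, 9.59 and 4.62, below both F0 arrays on F12. INSIG1, which holds back sterol sensing, read 7.55, 7.15, 9.58 and 6.77, above both on F6, and its 3 usable probesets ran from -2.81 to -0.50. DHCR7 and SQLE are given above. The 2 that were higher on F12, STARD4 (4.34, 8.60, 6.54 and 7.84) and SC5D (3.83, 9.08, 7.51 and 9.59), followed the F0 difference.

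**Figure D3:**
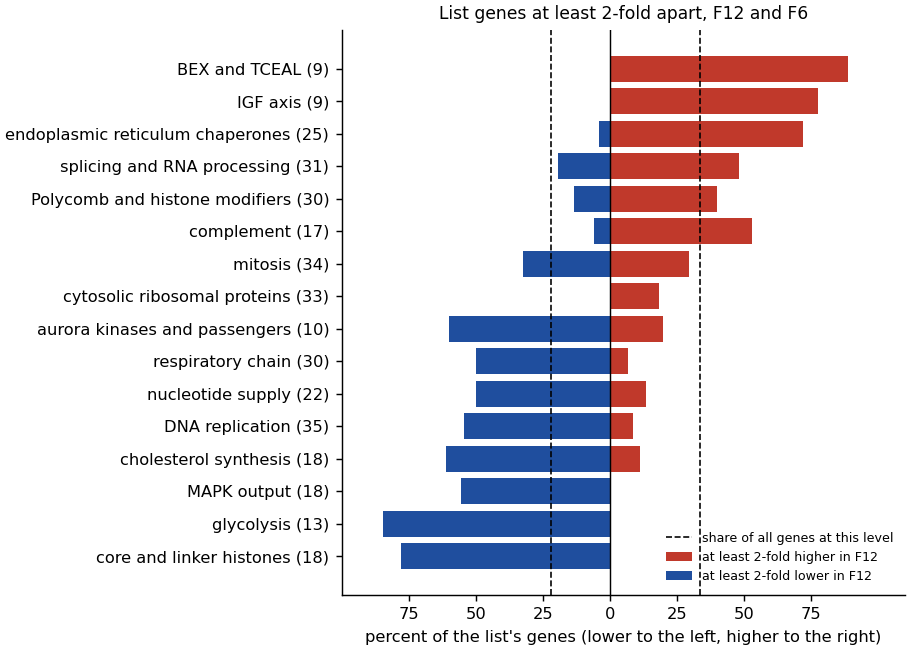
For 16 gene lists (rows, genes at the level in brackets) the bars give the percent of genes at least 2-fold higher on F12 (right) and at least 2-fold lower (left), and the dashed lines the share over all 10785 genes, 33.8% and 22.0%. The histone, glycolysis and MAPK lists have no bar on the right, and the BEX and TCEAL list, the IGF list and the ribosomal list have none on the left.

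Chaperones of the endoplasmic reticulum read higher on F12. Of 25 at the level, 18 were at least 2-fold higher (72.0%, against 33.8% of all genes) and 1 lower, CREB3L3, a liver transcription factor, with a median of 1.87. The median F0 difference was 2.17, and 0.44 was left after the line. HYOU1, which exchanges nucleotide on HSPA5, read 10.06, 10.23, 10.61 and 11.92, so the F0 arrays were alike and F12 stood above both. PDIA4, a disulfide isomerase, read 9.41, 11.50, 11.18 and 12.63, and SEL1L, of the degradation channel, 4.88, 10.11, 7.18 and 11.26. These 3 of 25 had F12 above both F0 arrays, against 2.39% of all genes. DNAJC3 (4.15, 9.55, 5.22 and 10.52) and DNAJB9 (6.07, 10.92, 7.25 and 11.00), cochaperones of HSPA5, followed the F0 difference. MANF, a secreted stress factor, read 10.55, 11.45, 9.85 and 11.85 with the F0 arrays within 2-fold, as did SELENOK, SELENOS and DERL2 of the degradation machinery, which differed by 2.02, 1.66 and 1.63. The stress transcription factor DDIT3 read 9.25, 9.66, 8.08 and 9.53, lowest on F6.

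Growth factor and binding protein genes of the IGF axis that reached the level were mostly higher. Of 9 at the level, of 14 measured, 7 were at least 2-fold higher on F12 (77.8%, against 33.8% of all genes) and 0 lower. The median was 1.57, or 1.05 left after the line, and 0.61 with no minimum level. Near background, the binding proteins IGFBP2 and IGFBP4 were lower, at 4.81 and 5.70 on F6 and 3.19 and 4.09 on F12. IGFBP1, a hepatic binding protein, read 4.86, 9.43, 5.40 and 10.08. IGFBP3 read 7.46, 8.75, 6.98 and 9.36, and the adaptor IRS2 6.01, 6.41, 6.13 and 7.63. IRS2 was the 1 gene of the list with F12 above both F0 arrays, and 6 followed the F0 difference.

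The BEX and TCEAL genes lie in a cluster on the X chromosome. Of 9 at the level, 8 were at least 2-fold higher on F12 (88.9%, against 33.8% of all genes) and 0 lower. The median was 2.45, or 0.90 left after the line. BEX1 is given above. BEX2 read 7.72, 9.15, 7.47 and 10.57, and BEX5 3.93, 4.64, 4.09 and 7.01. TCEAL4 (6.36, 9.93, 7.52 and 10.35) and TCEAL9 (6.80, 11.63, 9.59 and 11.57) followed the F0 difference. BEX3 was within 2-fold, at 12.36 on F6 and 12.78 on F12.

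**Figure D4:**
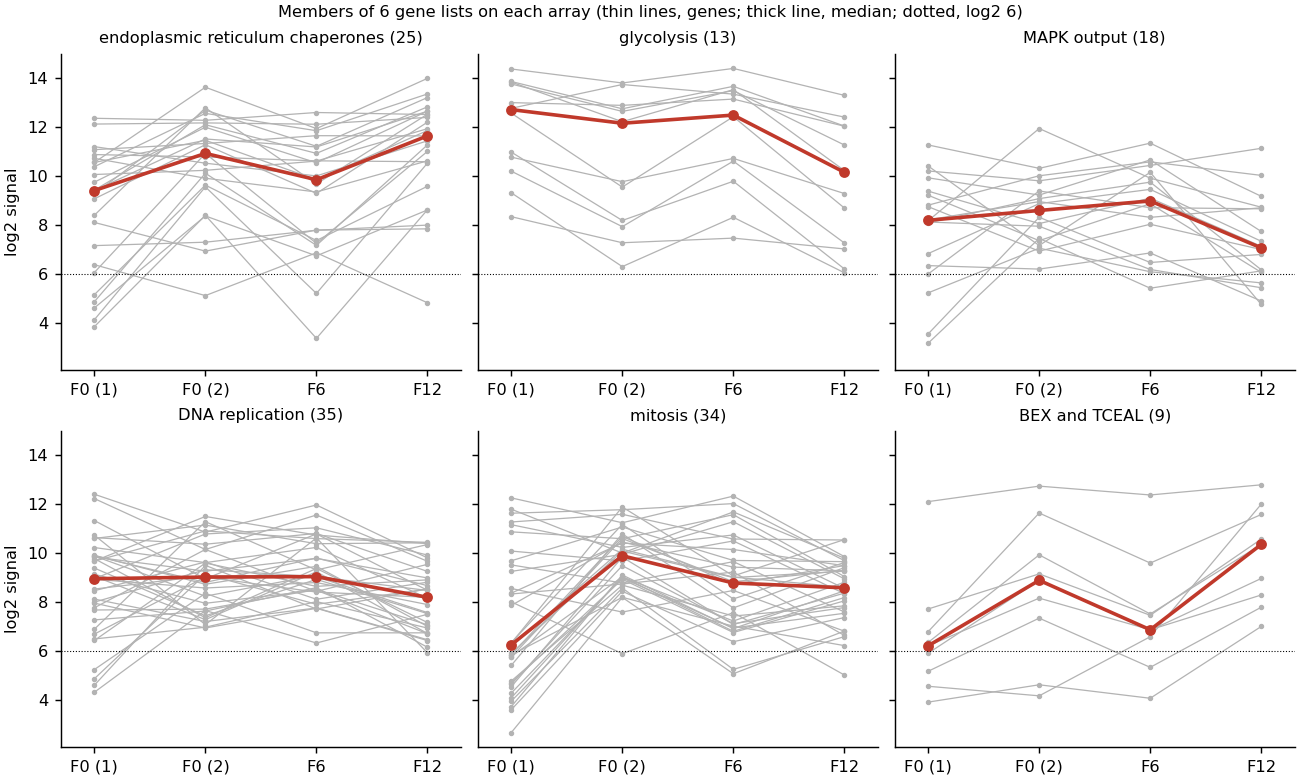
Thin lines join the log2 signals of each gene on the 4 arrays for 6 gene lists, and the thick line joins their medians, with log2 6 dotted. The glycolysis and MAPK medians are lowest on F12, the chaperone and BEX medians are highest there, and the mitosis median is lowest on F0 (1).

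Among secreted liver proteins the rounds differed gene by gene. GPC3, the oncofetal glypican, read 8.16, 12.77, 11.12 and 13.16. AFP, the fetal counterpart of albumin, read 8.88, 13.73, 11.95 and 12.60, a difference of 0.65. ALB read 12.41 and 13.58, but its 3 usable probesets ran from -1.17 to 1.17. Of 17 complement genes at the level, 9 were at least 2-fold higher on F12 (52.9%, against 33.8% of all genes) and 1 lower (5.88%). Of these 17, 0 stood outside the F0 range by 2-fold. A2M, a broad protease inhibitor, read 5.13, 8.77, 9.87 and 11.63. Drug-metabolism genes differed in shares near those of all genes. Of 14 at the level, 5 were at least 2-fold higher on F12 (35.7%, against 33.8%) and 3 lower (21.4%, against 22.0%). Among the higher ones, CYP3A5 read 4.18, 6.44, 4.45 and 8.97, SULT2A1 is given above, and GSTA1 read 10.26, 10.90, 9.81 and 11.79.

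Of 7 glutathione peroxidases measured, 5 reached the level. Of these, 4 were at least 2-fold lower (80.0%, against 22.0% of all genes). Beside GPX3 and GPX2, GPX1 read 13.15 on F6 and 11.04 on F12 and GPX4, which clears lipid peroxides, 12.64 and 11.38. GPX7, of the endoplasmic reticulum, was the 1 higher gene at the level, at 5.51, 5.58, 6.75 and 7.75. Under the level, GPX8 was also higher on F12, at 3.17, 4.33, 3.29 and 5.96, while GPX5 read 3.87, 2.94, 3.75 and 2.95.

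The chemokines CXCL1, CXCL3 and CXCL8, which draw neutrophils, were lowest on F6. CXCL1 read 7.46, 8.94, 5.12 and 7.55, CXCL3 7.45, 8.0015, 4.79 and 7.20, and CXCL8 5.70, 7.07, 4.14 and 7.22, so each was under 6 on F6, and F12 was within 2-fold of the nearest F0 array. ICAM1, another gene of the NF-kB list, went the other way, at 9.99, 10.43, 10.16 and 8.81. Of chemokines under the level, CXCL6 was also lowest on F6 (4.80, 6.95, 3.32 and 5.33). CXCL2, near background, was not (2.82, 2.44, 2.87 and 2.68). Of 16 genes of the NF-kB and neutrophil chemokine list at the level, 5 were at least 2-fold higher on F12 (31.25%, against 33.8% of all genes). A further 3 were lower (18.75%, against 22.0%), and the median left after the line was -0.03. Among 19 adhesion molecules at the level, 8 were at least 2-fold higher on F12 (42.1%, against 33.8%) and 4 lower (21.1%, against 22.0%). Their median was 0.21, or -0.07 left after the line. F12 stood above both F0 arrays for 3, VCAM1, ICAM2 (6.07, 4.72, 5.90 and 8.14) and ALCAM (4.77, 10.09, 8.27 and 11.17), against 2.39% of all genes. It stood below both for 1, ICAM1, against 1.68% of all genes. The progenitor marker PROM1 (CD133) read 5.51, 9.71, 8.96 and 11.82. Of 13 progenitor and stem cell markers at the level, 4 were at least 2-fold higher on F12 (30.8%, against 33.8% of all genes). A further 2 were at least 2-fold lower (15.4%, against 22.0%), and the median left after the line was -0.58.

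Genes of chromatin modification differed in shares near those of all genes. Of 30 Polycomb and histone modifier genes at the level, 12 were at least 2-fold higher on F12 (40.0%, against 33.8%) and 4 lower (13.3%, against 22.0%). All 16 followed the F0 difference, as did 83.5% of all 2-fold genes, and 0 stood outside the F0 range by 2-fold. EZH2, the Polycomb methyltransferase, read 5.26, 8.70, 7.09 and 8.67. DNMT1, which maintains DNA methylation, read 8.44, 10.11, 9.69 and 10.09. The median of the DNA methylation list was 1.02 over 12 genes and -0.16 once the line was subtracted. Splicing factors had 15 of 31 higher (48.4%) and 6 lower (19.4%), with 19 of the 21 following the F0 difference. Genes named ZNF, mostly zinc finger transcription factors, had 152 of 281 at least 2-fold higher (54.1%, against 33.8%) and 22 lower (7.83%, against 22.0%). Their median was 1.28, or 0.35 left after the line. ZNF91, a repressor of mobile elements, read 4.56, 11.43, 6.57 and 12.06.

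Among the genes named for following the F0 difference, the nuclear RNA MALAT1 read 6.58, 11.62, 7.53 and 11.63, and the cystine carrier SLC7A11 3.60, 10.60, 6.35 and 10.65. The ribosomal RNA precursor RNA45SN5 read 12.96, 6.87, 11.92 and 6.54, and the citrate carrier SLC25A1 11.52, 7.86, 11.60 and 7.08. In all 4, F6 lay nearer F0 (1) than F0 (2), and F12 was within 2-fold of F0 (2).

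The probeset used decided the size of some differences. Of 166 genes named in the text with a difference of at least 2-fold, 37 moved by over 1.5 times when all probesets of the gene were averaged, dim ones included. ZNF91 went from 5.49 to 1.12, NRP2 from 3.35 to 0.43, SKAP2 from 3.99 to 1.63, SOCS2 from 3.74 to 1.78 and KIF5C from 4.42 to 2.52. GPX2 went from -4.43 to -2.87, ETV5 from -3.57 to -1.96, INSIG1 from -2.81 to -1.75 and MYCN from -2.38 to -0.90. CYP3A5 went from 4.52 to 2.82, IGFBP1 from 4.68 to 2.15, HKDC1 from 3.11 to 1.56 and A2M from 1.76 to 0.60. FGFR3 went from -1.73 to -3.34 and ICAM1 from -1.35 to -2.08, farther from 0. VEGFA was the 1 gene that changed sign, from 1.51 to -0.28.

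Gene span, from the RefSeq start to end, moved with the difference. Span was found for 10781 of the 10785 genes. In the shortest of 10 bins (median 2.72 kb) the median difference was -0.81, with 8.43% of genes at least 2-fold higher on F12 and 40.0% at least 2-fold lower. In the longest (median 224 kb) it was 1.36, with 57.6% and 5.38%. The Spearman rho of span with the difference was 0.409 across genes, with the F0 difference it was 0.476, and with what was left after the line -0.021. The bin medians of what was left ran from -0.06 to 0.06. The genes with F12 above both F0 arrays had a median span of 60654 bases, and those with F12 below 11383. The mean signal of a gene over the 4 arrays also moved with the difference, with a Spearman rho of -0.204. With what was left after the line it was -0.297, so brighter genes tended to be lower there too.

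**Figure D5:**
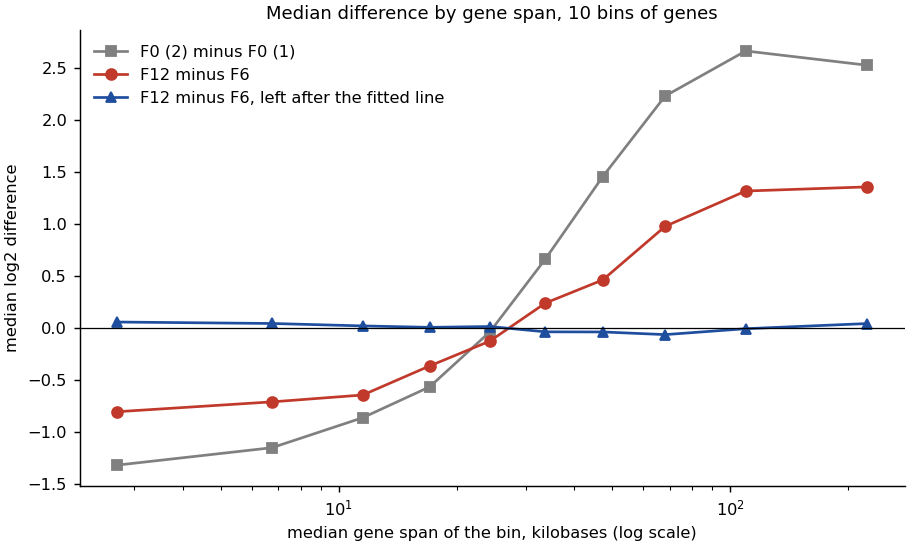
The points give the median log2 difference of about 1078 genes per bin against the median gene span of the bin in kilobases (log scale), for F0 (2) minus F0 (1), for F12 minus F6 and for what was left of it after the fitted line. Both differences climb from below 0 in short genes to above 0 in long genes, and the third line stays between -0.06 and 0.06.

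RNA handling and other cells were read from marker genes. The labels give an RNA integrity cutoff that all samples passed. RNA45SN5 and MALAT1 above were the genes of the RNA quality list that differed most. Of 18 immediate early genes, 13 reached 6 on F6 and 14 on F12, and the log2 of their summed signal was 13.34 and 13.33. Of 10 hepatocyte identity genes, 10 reached 6 on F6 and 9 on F12. Of the macrophage and myeloid markers 2 of 17 reached 6 on F6 and 1 on F12, and LYZ made up most of their summed signal of 11.32 and 9.82. LYZ read 8.34, 11.98, 10.99 and 9.20, while CD14 read 6.62 and 5.16. Of 16 endothelial markers 3 and 2 reached 6 (summed 9.82 and 9.01), of 15 fibroblast and stellate markers 2 and 2 (9.06 and 9.76), of 13 lymphoid markers 3 and 1 (9.12 and 8.67), of 6 erythroid markers 2 and 0 (8.19 and 7.58), and of 13 adipocyte and muscle markers 1 and 1 (10.05 and 8.63). The array reads human genes, and what RNA of the host mouse adds to its signals was not tested. The part of RNA handling, gene span, signal level and other cells in the differences above was not tested.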

How the data were processed

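Total RNA of 4 HuH7 samples was amplified with a 3' IVT kit, labelled with biotin and hybridised to 1 expression array each, per the labels' protocols. The authors deposited 1 log2 value for each probeset on each array, made with RMA in the affy package, per the submitters' processing notes. RMA corrects background, quantile-normalizes and summarizes probes. The software versions were not given in the sources used here. Quantile normalization forces the arrays to 1 distribution, so a shift shared by all genes cannot be seen.

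Of 54613 probesets, 41091 had 1 gene symbol in the platform annotation, 1801 several and 11721 none. Entrez numbers matched 41037 of them to RefSeq genes. Each of 19775 genes was read from 1 probeset, the brightest by its mean on the 4 arrays, with probesets marked for cross-hybridization used only where no other existed (419 genes had no other). Genes with near-identical copies can share probes. Differences were computed in Python 3.11.15 with pandas 2.3.3. With 1 array per round no test was made and no p-value is given, so counts rest on folds. The line of F12 minus F6 on F0 (2) minus F0 (1) was fitted by least squares across genes. How often the sorting into classes errs at the spread of these arrays was not tested.

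The genes, lists and classes were chosen with earlier results of these data known. The rule named, per class, the 10 genes with the largest difference (signals under 6 raised to 6) whose usable probesets, those at 6 or more on F6 or F12, all moved one way by at least 0.5. For each of 78 gene lists it named up to 4 members and those in a class, and always AFP, ALB, KDR, AURKA, AURKB, VEGFA, EZH2, DNMT1 and GPC3. HNF4A, also on that list, was not analysed here. Genes with F0 arrays within 2-fold, the genes of the stress element and the comparison with averaged probesets were chosen after their values were seen. Alternatives were the mean of all probesets, minimum levels of 5, 7 or none, signals raised to 6, centring, margins of 0.5 and 2, and each F0 array left out.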

Additional observations from a re-analysis of the deposited data

How the results depend on the processing

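With 1 array per round, no alternative says how a second tumor would read, and signals under log2 6 limit the folds they enter. With the mean of all probesets, 1085 genes were at least 4-fold higher in F12, 137 had F12 above both F0 arrays and 19 had F6 below both. After the line on the F0 difference was subtracted, 152 genes were at least 4-fold higher and 113 lower, and 981 and 1005 at least 2-fold. With a margin of 0.5 the counts were 784 for F12 above both F0 arrays, 526 for F12 below, 156 for F6 above and 99 for F6 below. With a margin of 2 they were 56, 27, 5 and 2. With signals under 6 raised to 6, F6 stood below both for 19. Leaving out 1 F0 array gave, for 1 round alone beyond the other array, 154 to 1220 for F12 above, 146 to 1885 for F12 below, 79 to 1698 for F6 above and 36 to 2960 for F6 below. The class that follows the F0 difference needs both F0 arrays and was not run without 1 of them. The median of the VEGF list turned to -0.35 with the mean of all probesets, -0.45 at a minimum level of 5, -0.39 with none and -0.19 after the line, and that of the DNA methylation list to -0.16 after the line. VEGFA turned to -0.28 with the mean of all probesets. The slope ran from 0.55 to 0.62 over the alternatives. Centring each array on its median shifted every difference by -0.07. No paired analysis was possible because each round has 1 array and no shared replicate number.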

Other observations

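Some gene groups outside the comparisons above are given beside the shares of all genes, 33.8% at least 2-fold higher on F12 and 22.0% lower. Of 18 hypoxia genes at log2 6 or more on F6 or F12, 9 read at least 2-fold higher on F12 and 1 lower (5.56%), and all 9 higher ones followed the F0 difference. Among them VEGFA is uncertain, and HIF1A, the oxygen-sensing transcription factor, read 8.31 on F0 (1), 12.32 on F0 (2), 10.05 on F6 and 11.89 on F12. Of 15 p53 targets, 7 were higher (46.7%) and 2 lower (13.3%), 7 of these 9 followed the F0 difference, and the median left after the line was 0.05. The receptor TNFRSF19, a Wnt target, read 3.15, 6.55, 6.55 and 9.33 on the same arrays, and the Wnt target TBX3 read 6.85, 6.83, 7.98 and 6.58.

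Of 15 interferon-stimulated genes at the level, 4 were at least 2-fold higher on F12 (26.7%, under the share of all genes) and 0 lower. MX2, a GTPase that blocks viruses, read 5.73, 4.86, 6.51 and 7.56, and IFIT1, which binds viral RNA, 5.04, 4.87, 5.07 and 6.45. PSMB10, a subunit of the immunoproteasome, read 10.40, 7.49, 8.38 and 6.20. In the serine pathway PHGDH, which makes its first intermediate, read 11.37, 10.87, 12.61 and 11.00, highest on F6.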
